A study of Mus musculus with 24 samples.

Results

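Mouse embryonic stem cells with a knockout of Atf3 (KO) and wild-type cells (WT) were compared on day 6 of differentiation by poly(A)+ RNA-seq. The comparison used 6 of the 24 libraries in the series, 3 of each genotype, taken by their genotype and day labels. The other 18 libraries, from days 0, 3 and 9, entered the estimate of spread and the contrasts with days 3 and 9. Before differentiation, cells of both genotypes were kept in serum with leukaemia inhibitory factor, the GSK3 inhibitor CHIR99021 and the MEK inhibitor PD0325901. The labels call both day 6 groups "Mes cells" of embryonic tissue and do not spell the name out. The labels leave out the differentiation medium, the edited part of Atf3 and the number of clones, and they do not say that the 3 libraries of a group were separate cultures. The p-values therefore measure only how far these libraries differ from each other, and that spread may be technical.

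ATF3 is a basic leucine zipper transcription factor that is induced by many kinds of stress and binds CRE and AP-1 sites, alone or with partners such as JUN. When pluripotent cells leave the epiblast they pass through the primitive streak, marked by brachyury (T), and its anterior part gives rise to mesendoderm that secretes antagonists such as CER1. Extraembryonic mesoderm of the yolk sac makes the first red blood cells, which carry embryonic globins, together with early megakaryocytes and endothelium.

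On day 6 the KO cells had lower levels of T, Cer1, Aplnr and other genes of the primitive streak and the anterior mesendoderm, and higher levels of 4 globins, Alas2, Tal1 and Itgb3. Of 12167 genes with an FPKM (fragments per kilobase of gene, scaled by library) of at least 1 in at least 3 of the 6 libraries, 99 passed an adjusted p of 0.05 (0.814%). Of these, 32 were higher in KO (0.263%) and 67 lower (0.551%). Of the 99, 39 reached the filter through the libraries of 1 genotype alone, 10 of the higher and 29 of the lower, so that their direction was given by the filter. Genes named for the largest differences were taken from called genes without overlap between the genotypes. The separation of their groups was thus given by the selection. Of all genes tested, 895 had no overlap (7.36%). Levels are FPKM throughout, and differences are KO minus WT group means of log2(FPKM + 1) with their standard error (SE), which understates the ratio of genes near or under 1 FPKM. Because RNA came from whole cultures, fewer cells of a type and less RNA per cell cannot be told apart.

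The 6 libraries were uneven, and the difference between replicates crossed the genotypes. Reads outside 3 genes of rRNA type (Gm23935, Gm42418 and CT010467.1) numbered 9589790, 12852191 and 4272088 in WT replicates 1, 2 and 3 and 9989297, 14820202 and 15966024 in the KO replicates. The rRNA-type genes took 45.6% of reads in WT replicate 3 (95% Wilson interval 45.6% to 45.7%), 6.10% in KO replicate 3 (6.09% to 6.11%) and 11.6% to 18.6% in the other 4. Mitochondrially encoded genes took 3.67% of the remaining reads in WT replicate 2 and 0.487% in WT replicate 3. Gene by gene, the deviation of a library from the mean of the 6 day 6 libraries followed the GC content of the gene in opposite directions. It gave r = 0.534 in WT replicate 3 and r = -0.518 in KO replicate 3 over 12159 genes. These deviations include the difference between the genotypes. Correlated across genes, the libraries did not group by genotype. WT replicate 1 and KO replicate 1 were the closest of all pairs (r = 0.98). The closest pair within a genotype was KO replicates 1 and 2 (r = 0.976). WT replicates 1 and 2 and KO replicates 1 and 3 each correlated most with a library of the other genotype. WT replicate 3 and KO replicate 2 each correlated most with one of their own. KO replicate 3 correlated more with WT replicate 2 (r = 0.94) than with KO replicates 2 and 1 (r = 0.901 and 0.84). It correlated least with WT replicate 3 (r = 0.770). The spread within the day 6 groups, as a median SD over genes, was 0.382 in KO and 0.352 in WT on the log2 scale, against 0.11 to 0.284 in the groups of other days. The fit shares its estimate of spread over all days. The SEs and adjusted p-values given for day 6 may therefore be too small.

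**Figure D1:**
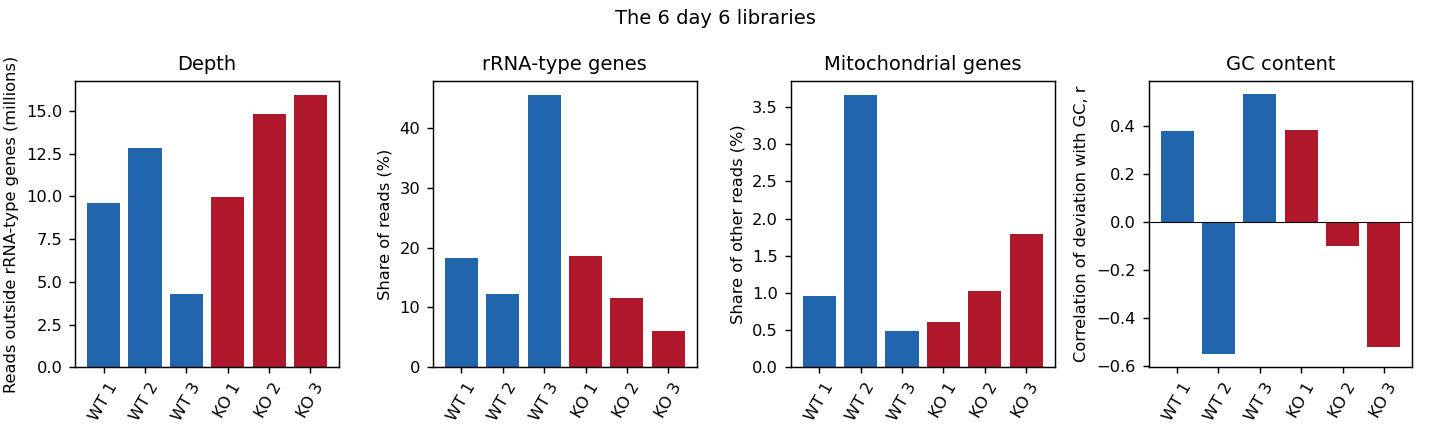
Bars give, for each of the 6 day 6 libraries, the reads outside rRNA-type genes (Mreads) and the percent of reads in rRNA-type genes. They also give the percent of the remaining reads in mitochondrial genes. The last bars give the correlation across genes between GC content and the library's deviation from the mean of the 6 libraries. WT replicate 3 has the highest rRNA-type share (45.6%) and KO replicate 3 the lowest (6.10%), and their correlations with GC content have opposite signs (0.534 and -0.518).

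The calls leaned on these libraries to different degrees. Without KO replicate 3, 122 genes passed (1.0%), 72 higher (0.592%) and 50 lower, and without WT replicate 3 only 50 passed (0.411%), 12 higher and 38 lower. Leaving out WT replicate 2 gave 402 calls, 200 of them higher, KO replicate 1 gave 151, WT replicate 1 gave 69 and KO replicate 2 gave 42, 6 of them higher. Without either replicate 3, 103 genes passed (0.847%), 59 higher (0.485%) and 44 lower, of which 53 were among the 99. When trends with GC content and gene length were removed from each library, 145 genes of 12159 passed (1.19%), 52 higher and 93 lower (0.765%), and these held 82 of the 99. A fit of the 6 libraries alone, with no spread shared from other days, called 0 genes in limma, with 359 at an unadjusted p under 0.05. Of the 99 genes, 35 passed whichever of the 6 libraries was left out, 30 lower and 5 higher. Without both replicate 3 libraries and with GC and length trends removed, 31 of those 35 still passed.

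**Figure D2:**
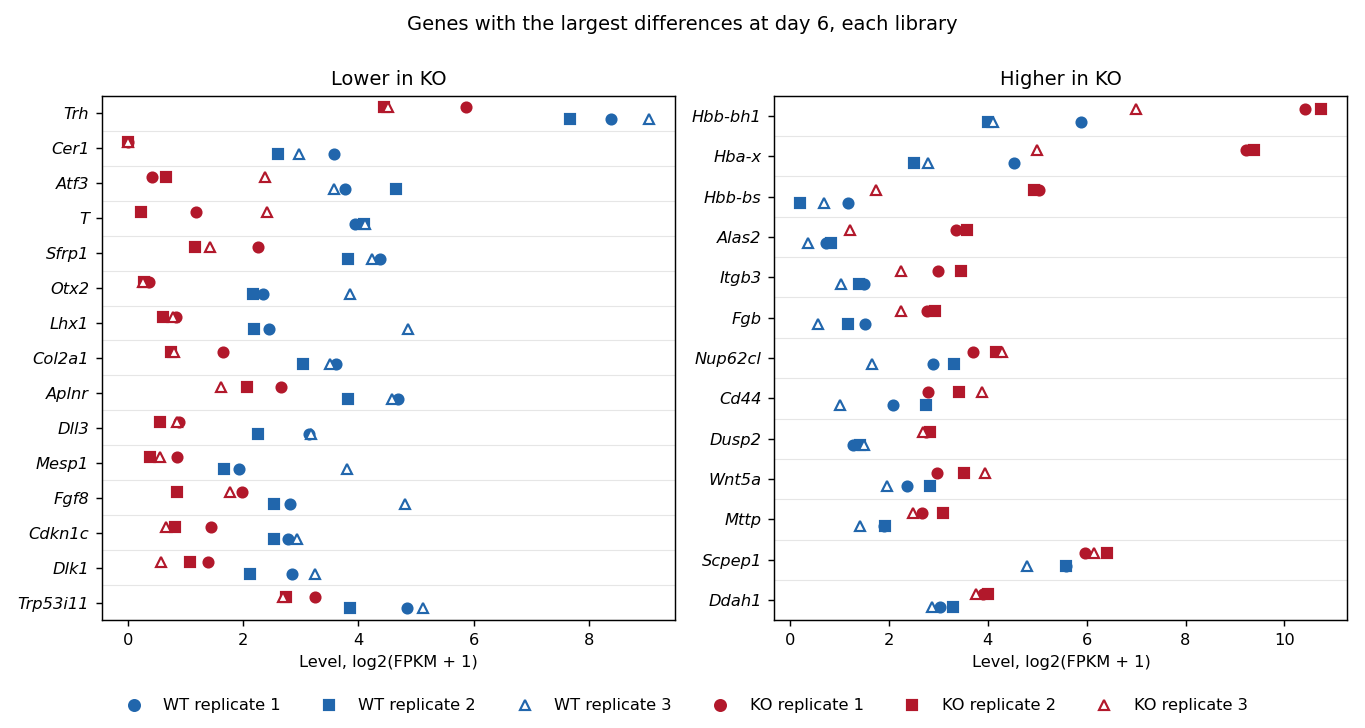
Each row is a gene named by the selection rule, 15 lower and 13 higher in KO, and each mark is the log2(FPKM + 1) level in a library (blue for WT, red for KO, open triangles for replicate 3). Cer1 is at 0 in all 3 KO libraries, the marks of Dusp2 lie close together within each genotype, and for Hbb-bh1 and Hba-x KO replicate 3 lies between the WT libraries and the other KO libraries.

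The targeted gene was lower in each KO library, as its label says. Atf3 (ENSMUSG00000026628, minus strand, chr1:191170296-191218039 in mm10) read 12.7, 24 and 10.9 FPKM in WT replicates 1, 2 and 3 and 0.343, 0.578 and 4.17 FPKM in the KO replicates. All KO values lay under all WT values, and KO replicate 3 stood out with 12.2 times the level of KO replicate 1 and 7.21 times that of KO replicate 2. The KO mean was 10.7% of the WT mean, with a log2 difference of -2.84 (SE 0.40, adjusted p = 6.36e-04, limma). The difference was -3.45 without KO replicate 3 and -3.67 without either replicate 3, and it did not pass under TPM (-2.38, adjusted p = 0.134) or with the 6 libraries alone (adjusted p = 0.418). An exact two-sided permutation test of the 3 KO against the 3 WT values gave p = 0.1, the smallest that 3 against 3 allows. Which exons the KO transcript keeps is not stated by the labels, so the level of the gene does not show how much intact protein could be made.

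Of 18 genes of the Atf3 and AP-1 family (FOS, JUN, ATF and related bZIP factors), 17 were tested, and Atf3 was the member called. Their median difference was 0.03, against 0.02 over all genes tested. Jund, the most abundant AP-1 subunit here, read 145, 85.2 and 207 FPKM in WT and 167, 124 and 71.3 FPKM in KO, with overlapping groups (log2 difference -0.26, adjusted p = 0.761). Atf4, the effector of the integrated stress response, read 92.8, 117 and 109 FPKM in WT and 83.5, 92.1 and 160 FPKM in KO (log2 difference 0.02, adjusted p = 0.974). Of 24 tested genes of the integrated stress response, 0 passed in limma or voom, 2 had an unadjusted p under 0.05, and their median difference was -0.14.

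Primitive streak genes were lower in KO. Of 21 listed genes 15 were tested, and 7 passed, all lower (against 0.551% of all genes), and all 15 differences were negative, with a median of -1.14 against 0.02 over all genes. Of the 7, Mesp1 and Lhx1 reached the filter through WT alone, which left them no other direction. The FPKM summed over the list was 105, 90.8 and 217 in the WT libraries and 66.2, 46.3 and 50.3 in the KO libraries, so WT replicate 3 was far above the other 2 WT libraries. With KO replicate 3 left out 7 members still passed, without WT replicate 3 it was 3, without both 5, and with GC and length trends removed 5. By voom on recovered reads 2 of the 15 passed.

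T, the T-box factor that defines the streak, read 14.4, 16.0 and 16.2 FPKM in WT and 1.28, 0.164 and 4.35 FPKM in KO. The WT libraries lay within a narrow range, and KO replicate 3 was the highest of the KO libraries. The log2 difference was -2.77 (SE 0.60, adjusted p = 0.0294), and the call was lost without WT replicate 1 (0.0834), WT replicate 3 (0.128), KO replicate 1 (0.0562) or KO replicate 2 (0.227). Mesp1, a factor of the earliest migrating mesoderm, read 2.83, 2.18 and 12.9 FPKM in WT and 0.796, 0.297 and 0.467 FPKM in KO (-1.88, SE 0.33, adjusted p = 0.00455). Its WT level was carried by replicate 3, without which the difference was -1.21. Lhx1, a LIM homeobox factor of the anterior streak and its derivatives, showed the same outlying library with 27.9 FPKM in WT replicate 3 against 4.42 and 3.55 FPKM in the other 2 and 0.519 to 0.793 FPKM in KO (-2.42, SE 0.43, adjusted p = 0.00524, and -1.57 without WT replicate 3).

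Fgf8, the growth factor needed for cells to leave the streak, read 5.99, 4.78 and 26.8 FPKM in WT and 2.94, 0.802 and 2.43 FPKM in KO. Its difference of -1.84 (SE 0.42, adjusted p = 0.0371) did not pass without WT replicate 3 (-1.13, adjusted p = 0.217), without KO replicate 2 (0.281) or with GC and length trends removed (-1.59, adjusted p = 0.0540). Aplnr, the receptor for the peptides apelin and ELABELA on migrating mesoderm, read 24.8, 13.1 and 22.9 FPKM in WT and 5.29, 3.16 and 2.08 FPKM in KO. The difference of -2.25 (SE 0.26, adjusted p = 3.56e-05) passed whichever library was left out. Sp5, a zinc finger target of Wnt signalling, read 3.98, 4.45 and 3.93 FPKM in WT and 0.923, 0.928 and 2.36 FPKM in KO (-1.14, SE 0.24, adjusted p = 0.0212), and it did not pass without WT replicate 1 (adjusted p = 0.0654), WT replicate 3 (0.0701), KO replicate 1 (0.0653) or KO replicate 2 (0.149) or with GC and length trends removed (0.161). Eomes, a T-box partner of T that was chosen after its values were seen, read 2.69, 3.59 and 9.05 FPKM in WT and 0.844, 0.939 and 1.89 FPKM in KO (log2 difference -1.35, adjusted p = 0.0686).

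Among genes of the anterior mesendoderm and definitive endoderm, Cer1, Trh, Otx2, Lhx1, Gsc, Shisa2 and Chrd were lower. Of 23 listed genes 21 were tested, so 7 passed (against 0.551% of all genes). Of the 7, all but Trh and Gsc reached the filter through WT alone, so their direction was given by the filter and their count does not support that of the list. The median difference of those tested was -0.45. Lhx1 and Gsc belong to both this list and the streak list. The list counts were 6, 5 and 6 lower without KO replicate 3, without WT replicate 3 and without both, and 8 lower with GC and length trends removed.

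Cer1 (ENSMUSG00000038192, minus strand, chr4:82881751-82885148), a secreted antagonist of Nodal, BMP and Wnt ligands, read 11, 5.07 and 6.86 FPKM in the WT replicates, and each KO library lists it at 0. Its difference of -3.05 on the log2(FPKM + 1) scale (SE 0.24, adjusted p = 5.75e-07) sets no limit on the ratio, and it lay between -3.28 and -2.79 whichever library was left out. Trh, which encodes the precursor of thyrotropin-releasing hormone, was the most abundant of the called genes that were lower, with 334, 202 and 524 FPKM in WT and 57.0, 20.7 and 21.8 FPKM in KO (-3.43, SE 0.39, adjusted p = 3.56e-05). Trh was not first expressed at day 6. Its mean was 651 FPKM in WT and 588 FPKM in KO at day 0, and 341 and 366 FPKM at day 3, against 353 FPKM in WT at day 6. Otx2, a homeobox factor of the primed epiblast and the anterior mesendoderm, read 4.1, 3.52 and 13.5 FPKM in WT and 0.284, 0.218 and 0.20 FPKM in KO. All 3 KO libraries were near 0 and WT replicate 3 was the highest, and the difference was -2.49 (SE 0.39, adjusted p = 0.00165).

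Smaller differences were found in Gsc, Shisa2 and Chrd. Gsc, the homeobox factor goosecoid, read 2.56, 2.10 and 7.78 FPKM in WT and 1.38, 0.513 and 0.313 FPKM in KO (-1.45, SE 0.31, adjusted p = 0.0290), and it did not pass without WT replicate 3 (adjusted p = 0.210), KO replicate 2 (0.149) or KO replicate 3 (0.104). Shisa2, which retains Wnt and FGF receptors in the endoplasmic reticulum, read 2.32, 2.18 and 3.87 FPKM in WT and 0.402, 0.516 and 0.757 FPKM in KO (-1.26, SE 0.23, adjusted p = 0.00757), with adjusted p of 0.0718 without WT replicate 3 and 0.0505 without KO replicate 2. Chrd, a secreted BMP antagonist of the node, read 2.2, 1.63 and 1.73 FPKM in WT and 0.648, 0.770 and 0.629 FPKM in KO (-0.76, SE 0.14, adjusted p = 0.00868, and 0.0664 without WT replicate 1). Foxa2, a forkhead factor of endoderm chosen after its values were seen, overlapped between WT (6.71, 5.10 and 12.4 FPKM) and KO (6.5, 8.55 and 2.43 FPKM), with a log2 difference of -0.45 (adjusted p = 0.572).

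Of 20 genes of paraxial and presomitic mesoderm 7 were tested, and 2 passed, both lower (against 0.551% of all genes), with a median of -1.08. Both reached the filter through the WT libraries alone, so their direction was given by it. Dll3, a Notch ligand of the presomitic mesoderm that inhibits signalling within the cell that makes it, read 7.80, 3.78 and 8.05 FPKM in WT and 0.842, 0.475 and 0.801 FPKM in KO (-2.09, SE 0.23, adjusted p = 3.46e-05). Foxc2, a forkhead factor of paraxial mesoderm, read 4.32, 2.15 and 3.45 FPKM in WT and 0.203, 0.258 and 0.109 FPKM in KO (-1.82, SE 0.23, adjusted p = 1.64e-04). For both genes all 3 KO libraries lay under 1 FPKM, and both passed whichever library was left out. Dll3 was the only called gene among 10 tested Notch genes, of which 9 had a negative difference (median -0.44). The Notch target Hes1, one of the list's most abundant members, read 21.9, 16.3 and 66.9 FPKM in WT and 29.0, 20.7 and 13.5 FPKM in KO (log2 difference -0.50, adjusted p = 0.602).

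Of 16 tested Wnt ligands and secreted inhibitors, Sfrp1, Wnt6 and Cer1 were lower (against 0.551% of all genes) and Wnt5a higher (against 0.263%), with a median of -0.16. Sfrp1, a secreted antagonist that binds Wnt proteins, read 19.8, 13.1 and 17.7 FPKM in WT and 3.78, 1.25 and 1.68 FPKM in KO (-2.52, SE 0.28, adjusted p = 2.89e-05). Wnt6, a ligand of canonical signalling, read 2.61, 3.24 and 4.81 FPKM in WT and 0.590, 0.321 and 1.11 FPKM in KO (-1.44, SE 0.21, adjusted p = 6.45e-04). Both calls held whichever library was left out. Wnt5a, a ligand of non-canonical signalling, lay the other way with 4.17, 6.11 and 2.90 FPKM in WT and 6.80, 10.4 and 14.3 FPKM in KO (1.08, SE 0.22, adjusted p = 0.0193). The Wnt5a call was lost without WT replicate 1 (adjusted p = 0.0709), WT replicate 3 (0.162), KO replicate 2 (0.0927) or KO replicate 3 (0.0818), and the difference without both replicate 3 libraries was 0.64 (adjusted p = 0.330).

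In the other signalling lists few members passed (of all genes, 0.551% passed lower and 0.263% higher). Among 12 tested Wnt targets, T and Sp5 were lower (median -0.01). Among 16 tested genes of Nodal signalling Cer1 was the call (median -0.15), and Foxh1, the DNA-binding partner of its SMADs, read 71.1, 55.4 and 110 FPKM in WT and 62.8, 46.3 and 57.9 FPKM in KO (adjusted p = 0.509). Among 18 tested BMP genes Chrd was the call (median -0.11), and the BMP target Id1 read 113, 83.3 and 241 FPKM in WT and 174, 128 and 31.1 FPKM in KO, with the replicate 3 libraries at opposite ends (adjusted p = 0.735). Among 18 tested genes of FGF signalling and ERK feedback (median -0.24), Fgf8 was lower and Dusp2 higher. Dusp2, a nuclear phosphatase that inactivates ERK, read 1.40, 1.66 and 1.83 FPKM in WT and 5.71, 6.14 and 5.48 FPKM in KO. Both groups were narrow, and the difference of 1.37 (SE 0.17, adjusted p = 1.64e-04) ranged from 1.3 to 1.42 whichever library was left out.

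Further genes that were lower were Col2a1, Cdkn1c, Dlk1 and Trp53i11. Col2a1, the fibrillar collagen of notochord and cartilage, read 11.2, 7.19 and 10.4 FPKM in WT and 2.15, 0.677 and 0.736 FPKM in KO (-2.32, SE 0.36, adjusted p = 0.00165). The list of collagens and matrix had 0 calls among 10 tested genes in limma or voom, with 3 at an unadjusted p under 0.05 and a median of 0.23. Its most abundant members lay the other way, Col1a1, a chain of the main collagen of connective tissue, by 0.88 and Col5a1, a minor fibrillar chain, by 0.65 (adjusted p = 0.227 and 0.155). Cdkn1c, an imprinted inhibitor of cyclin-dependent kinases, read 5.82, 4.76 and 6.64 FPKM in WT and 1.72, 0.770 and 0.584 FPKM in KO (-1.77, SE 0.25, adjusted p = 5.86e-04). Dlk1, an imprinted membrane protein of the Notch ligand family, read 6.20, 3.33 and 8.51 FPKM in WT and 1.63, 1.12 and 0.482 FPKM in KO (-1.72, SE 0.31, adjusted p = 0.00600, and 0.0556 without WT replicate 3). Cdkn1c and Dlk1 were the 2 called of 12 tested imprinted growth genes (against 0.551% of all genes called lower), with a median of 0.00 for the list. Trp53i11, a gene named for its induction by p53, read 27.7, 13.5 and 33.6 FPKM in WT and 8.43, 5.72 and 5.46 FPKM in KO (-1.71, SE 0.26, adjusted p = 0.00138). The 4 genes were named from called genes without overlap between the genotypes, so their lack of overlap was given by the selection. Of all genes tested, 895 had no overlap (7.36%).

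Embryonic and adult globins were higher in KO, most of all in KO replicates 1 and 2. Of 10 listed globin genes 6 were tested and 4 passed, all higher (against 0.263% of all genes), with a median of 3.60. The summed FPKM of the list was 104, 25.1 and 35.7 in the WT libraries and 2499, 2825 and 174 in the KO libraries, so KO replicate 3 was above each WT library and far under the other 2 KO libraries. The mean sum was 33.3 times that of WT with all KO libraries, 48.4 times with KO replicates 1 and 2, and 3.16 times with KO replicate 3. Globins called were 6 without KO replicate 3 or without both, 3 without WT replicate 3 and 5 with GC and length trends removed. By voom on recovered reads 2 of the 6 passed, Hbb-bh1 and Hba-x. Near-identical copies (Hba-a1 and Hba-a2, Hbb-bs and Hbb-bt) share reads, and their separate levels are less certain.

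Hbb-bh1, the embryonic beta-type globin of primitive red cells, read 57.8, 15.1 and 16.1 FPKM in WT and 1376, 1722 and 126 FPKM in KO (4.73, SE 0.75, adjusted p = 0.00165). KO replicate 3 lay nearest to WT, and the difference was 5.93 without it and 5.65 without both replicate 3 libraries. Hba-x, the embryonic alpha-type (zeta) globin, read 22.1, 4.67 and 5.87 FPKM in WT and 599.6, 668 and 31.1 FPKM in KO (4.60, SE 0.82, adjusted p = 0.00586), with 6.04 without KO replicate 3 and an adjusted p of 0.0612 without KO replicate 2. Hbb-bs, an adult beta globin, read 1.26, 0.154 and 0.597 FPKM in WT and 31.9, 29.6 and 2.33 FPKM in KO (3.22, SE 0.55, adjusted p = 0.00434, and 4.30 without KO replicate 3). By voom Hbb-bs did not pass (adjusted p = 0.117). Hba-a1, an adult alpha globin, overlapped, since KO replicate 3 at 10.2 FPKM lay under WT replicate 1 at 16.3 FPKM, and its call (3.98, SE 0.92, adjusted p = 0.0422) was lost without WT replicate 2 (0.0607), WT replicate 3 (0.220), KO replicate 1 (0.103) or KO replicate 2 (0.293). Hbb-y, the other main embryonic beta-type globin, chosen after its values were seen, read 71.7 and 86.5 FPKM in KO replicates 1 and 2 but 2.82 FPKM in KO replicate 3, within the WT range of 2.24 to 7.61 FPKM (log2 difference 2.44, adjusted p = 0.205).

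Fewer of the other erythroid genes reached the filter. Of 33 erythroid factors, membrane proteins and enzymes of haem synthesis 16 were tested and 1 passed, with a median of 0.29. That gene, Alas2, reached the filter through KO alone, so its direction and lack of overlap were given by the filter. Alas2, the erythroid enzyme of the first step of haem synthesis, read 0.658, 0.764 and 0.286 FPKM in WT and 9.30, 11 and 1.32 FPKM in KO (2.08, SE 0.41, adjusted p = 0.0128). The difference was 2.84 without KO replicate 3, and the call was lost without WT replicate 3 (adjusted p = 0.0908), KO replicate 1 (0.0536) or KO replicate 2 (0.125). By voom Alas2 did not pass (adjusted p = 0.131). Alad and Car2, the list's most abundant members, which are expressed in many cell types, had differences of -0.48 and 0.31 (adjusted p = 0.616 and 0.697). Without the filter on low values, 7 of the 33 passed, all higher, among 196 of 28744 genes (0.682%, or 0.240% higher and 0.442% lower). They included Gata1, the master factor of the erythroid lineage, with 0.649, 0.413 and 0.564 FPKM in WT and 2.39, 5.15 and 0.916 FPKM in KO (adjusted p = 0.0412). Klf1, which activates adult globin genes, read 0.345, 0.155 and 0.30 FPKM in WT and 3.32, 5.73 and 0.551 FPKM in KO (adjusted p = 0.0467). In both, KO replicate 3 was the KO library nearest to WT.

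Of 16 megakaryocyte and platelet genes only Itgb3 and Itga2b were tested, and both passed, higher in KO (against 0.263% of all genes). Itgb3, the beta subunit of the platelet fibrinogen receptor, read 1.83, 1.63 and 1.05 FPKM in WT and 6.91, 9.94 and 3.73 FPKM in KO (1.58, SE 0.23, adjusted p = 6.45e-04) and passed whichever library was left out. Its partner Itga2b, also a mark of the earliest blood progenitors, read 0.709, 0.749 and 1.51 FPKM in WT and 3.59, 4.32 and 1.57 FPKM in KO (1.02, SE 0.22, adjusted p = 0.0248), with adjusted p of 0.133, 0.0653 and 0.189 without WT replicate 1, KO replicate 1 and KO replicate 2. Pf4, a defining platelet gene chosen after its values were seen, was listed at 0 in all 6 libraries.

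Of 11 tested blood and vessel progenitor genes 2 passed, both higher (against 0.263% of all genes), with a median of 0.22 and 4 negative differences. Of the 2, Tal1 reached the filter through KO alone, which left it no other direction. Tal1, the factor that specifies blood, read 0.602, 0.338 and 0.838 FPKM in WT and 3.10, 4.61 and 1.05 FPKM in KO (1.19, SE 0.23, adjusted p = 0.0114, and 0.0955 without KO replicate 2). Runx1, needed for definitive blood, read 0.877, 1.63 and 0.853 FPKM in WT and 1.92, 2.97 and 2.52 FPKM in KO (0.72, SE 0.16, adjusted p = 0.0364). Runx1 did not pass without WT replicate 1 (0.168), WT replicate 3 (0.223), KO replicate 2 (0.243) or KO replicate 3 (0.0789), or with GC and length trends removed (0.232). Of 12 tested endothelial genes 0 passed in limma or voom, with 2 at an unadjusted p under 0.05 (median 0.10). Without the filter on low values Tie1, a receptor of endothelium chosen after its values were seen, passed, with 0.143, 0.0963 and 0.0466 FPKM in WT and 1.07, 2.04 and 0.404 FPKM in KO (adjusted p = 0.0403). Cdh5, the defining cadherin of endothelium, did not reach the filter, with 0.209, 0.352 and 0.382 FPKM in WT and 0.944, 3.21 and 1.44 FPKM in KO, and Pecam1, an adhesion molecule of endothelium and platelets, read 3.29, 2.35 and 2.61 FPKM in WT and 3.93, 5.64 and 3.59 FPKM in KO (log2 difference 0.51, adjusted p = 0.258). In neither did the genotypes overlap. Among the genes tested, which leave out Cdh5, 895 had no overlap (7.36%).

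Markers of the visceral and yolk sac endoderm varied between the same libraries as the globins. Their summed FPKM was 1262, 634 and 1069 in WT and 2828, 2334 and 369 in KO, so KO replicates 1 and 2 were above every WT library and KO replicate 3 was under all of them. Ttr, the thyroid hormone carrier, read 177, 67.5 and 40.8 FPKM in WT and 487, 429 and 43.3 FPKM in KO, and Apoa1, an apolipoprotein, read 7.96, 2.68 and 6.87 FPKM in WT and 42.0, 28.2 and 0.843 FPKM in KO, neither of which passed (adjusted p = 0.472 and 0.602). Of 23 tested genes 2 passed, both higher (against 0.263% of all genes), with a median of 0.38. Without KO replicate 3 it was 9, all higher (against 0.592% of all genes). Without WT replicate 3 it was 0 in limma, with 3 at an unadjusted p under 0.05 (590 of all 12167 genes). Fgb, the beta chain of fibrinogen, read 1.87, 1.24 and 0.482 FPKM in WT and 5.79, 6.64 and 3.73 FPKM in KO (1.56, SE 0.35, adjusted p = 0.0362), and it did not pass without WT replicate 3 (0.261), KO replicate 1 (0.0653) or KO replicate 2 (0.199), or with GC and length trends removed (0.0924). Mttp, which loads lipid onto lipoproteins, read 2.75, 2.79 and 1.66 FPKM in WT and 5.33, 7.52 and 4.63 FPKM in KO (1.00, SE 0.19, adjusted p = 0.0113), with adjusted p of 0.0998 and 0.113 without WT replicate 3 and KO replicate 2. The part of these endoderm levels in the globin result was not tested.

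**Figure D3:**
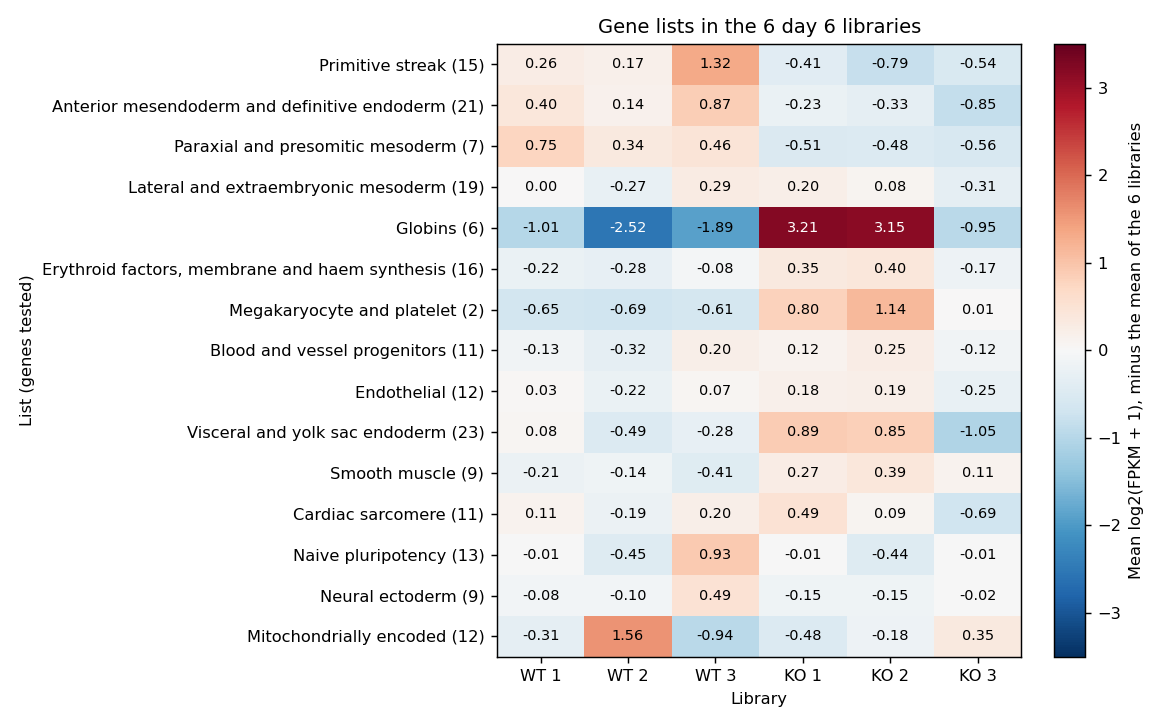
The colour of each cell is the mean log2(FPKM + 1) of a gene list in a day 6 library minus the mean over the 6 libraries, for 15 lists (rows) and 6 libraries (columns). The globins read 3.21 and 3.15 in KO replicates 1 and 2 and -0.95 in KO replicate 3, the visceral and yolk sac endoderm 0.89, 0.85 and -1.05, and the primitive streak is below 0 in all 3 KO libraries and highest in WT replicate 3 (1.32).

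Further genes that were higher were Cd44, Nup62cl, Ddah1 and Scpep1. Cd44, the hyaluronan receptor, read 3.23, 5.71 and 1.02 FPKM in WT and 5.90, 9.65 and 13.8 FPKM in KO (1.41, SE 0.32, adjusted p = 0.0373). Nup62cl, a gene similar in sequence to the nucleoporin NUP62, read 6.37, 8.96 and 2.16 FPKM in WT and 12.1, 16.8 and 18.6 FPKM in KO (1.43, SE 0.32, adjusted p = 0.0322). In both genes WT replicate 3 was the lowest and KO replicate 3 the highest of all 6, and both calls were lost without WT replicate 1, WT replicate 3, KO replicate 2 or KO replicate 3 (adjusted p from 0.0527 to 0.277). Without both replicate 3 libraries the differences were 0.69 for Cd44 and 0.83 for Nup62cl (adjusted p = 0.529 and 0.352). Ddah1, which degrades inhibitors of nitric oxide synthesis, read 7.13, 8.86 and 6.33 FPKM in WT and 13.9, 15.1 and 12.5 FPKM in KO (0.82, SE 0.15, adjusted p = 0.00713), with adjusted p of 0.0509 and 0.0613 without WT replicate 3 and KO replicate 2. Scpep1, a serine carboxypeptidase, read 47.1, 46.8 and 26.6 FPKM in WT and 61.7, 84.6 and 70.1 FPKM in KO (0.86, SE 0.18, adjusted p = 0.0248), with 0.152 and 0.180 without the same libraries.

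Of 19 tested Hox and Cdx genes, which set position along the body axis, 2 were higher (against 0.263% of all genes) and 1 lower (against 0.551%), with a median of 0.16. Of the 2, Hoxd8 reached the filter through KO alone, so its direction was given by the filter. Hoxb1, an anterior gene expressed early in the streak, read 3.60, 1.56 and 2.37 FPKM in WT and 1.11, 0.280 and 0.641 FPKM in KO (-1.05, SE 0.18, adjusted p = 0.00417) and passed whichever library was left out. The more posterior Hoxa10 read 0.618, 1.19 and 0.701 FPKM in WT and 1.61, 1.87 and 2.67 FPKM in KO (0.73, SE 0.16, adjusted p = 0.0253). Hoxd8 read 0.737, 0.949 and 0.501 FPKM in WT and 1.98, 1.40 and 1.72 FPKM in KO (0.65, SE 0.14, adjusted p = 0.0226). Hoxb1 and Hoxa10 had no overlap between genotypes, as in 895 of all genes tested (7.36%). For Hoxd8 the lack of overlap was given by the filter. With GC and length trends removed neither Hoxa10 (0.77, adjusted p = 0.0761) nor Hoxd8 (0.77, adjusted p = 0.0710) passed, although neither difference was smaller, and each was lost without 3 or more of the 6 libraries in turn (up to 0.140 and 0.138).

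Lists of several other cell types gave no calls in limma or in voom with the filter and all 6 libraries. In other settings, lateral and extraembryonic mesoderm gave 1 call, higher, without KO replicate 3 or without both replicate 3 libraries, and naive pluripotency gave 1, higher, without both. Without the filter, 2 neural ectoderm genes, named after seeing their values, were lower, Six3 (adjusted p = 0.00171), a factor of the forebrain, and Pax3 (-0.58, adjusted p = 2.87e-05), a factor shared with paraxial mesoderm. Of 19 tested genes of lateral and extraembryonic mesoderm 0 passed, with 6 at an unadjusted p under 0.05 (median -0.03), and Hand1, its most abundant factor, read 246, 150 and 249 FPKM in WT and 337, 304 and 196 FPKM in KO (adjusted p = 0.570). Of 9 tested smooth muscle genes 0 passed, with 7 at an unadjusted p under 0.05 and a median of 0.69. Without WT replicate 3, 2 of them had an unadjusted p under 0.05 (590 of all 12167 genes). Acta2, smooth muscle actin, read 59.3, 57.7 and 34.8 FPKM in WT and 130, 217 and 99.5 FPKM in KO (1.5, adjusted p = 0.124). Its groups did not overlap, as in 895 of all genes tested (7.36%). Counts were also 0 of 13 for naive pluripotency (2 at an unadjusted p under 0.05, median -0.16), 0 of 9 for neural ectoderm (3), 0 of 11 for trophoblast (3), 0 of 8 for cardiac factors (1), 0 of 11 for the cardiac sarcomere (2) and 0 of 3 for myeloid genes (0). The defining markers were near 0 for several of these types in all 6 libraries. The trophoblast genes Tpbpa and Prl3d1 were listed at 0, the neural factor Pax6 was at most 0.0451 FPKM, and Ptprc, the pan-leukocyte phosphatase CD45, was above 0 in KO replicate 2 alone (0.0325 FPKM).

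The windows just upstream of the start sites are shown for 3 genes that were lower (Cer1, T and Trh) and 3 that were higher (Dusp2, Tal1 and Alas2), as examples of the letters searched. The windows are 250 bases long and end at the base before the RefSeq start (GRCm38.p6, the build of mm10), except that of Alas2, which was shortened to 208 bases to end before the annotated gene in GENCODE. They lie at chr4:82885152-82885401 (Cer1, minus strand), chr17:8434173-8434422 (T, plus), chr6:92244651-92244900 (Trh, minus), chr2:127335909-127336158 (Dusp2, plus), chr4:115056176-115056425 (Tal1, plus, first of its listed starts) and chrX:150547167-150547374 (Alas2, plus), and are written 5′ to 3′ on the gene's strand. Capitals mark matches, on either strand, to the 7 motifs searched, and sequences without capitals hold none.
Cer1: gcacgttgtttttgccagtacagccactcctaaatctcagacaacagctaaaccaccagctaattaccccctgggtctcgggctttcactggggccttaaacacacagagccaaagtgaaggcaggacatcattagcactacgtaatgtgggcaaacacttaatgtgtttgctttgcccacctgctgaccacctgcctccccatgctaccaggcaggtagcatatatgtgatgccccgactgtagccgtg
T: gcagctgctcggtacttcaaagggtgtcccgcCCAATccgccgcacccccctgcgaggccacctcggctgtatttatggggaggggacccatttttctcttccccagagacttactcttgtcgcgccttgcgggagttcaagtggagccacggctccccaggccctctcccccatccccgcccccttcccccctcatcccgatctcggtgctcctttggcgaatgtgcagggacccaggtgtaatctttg
Trh: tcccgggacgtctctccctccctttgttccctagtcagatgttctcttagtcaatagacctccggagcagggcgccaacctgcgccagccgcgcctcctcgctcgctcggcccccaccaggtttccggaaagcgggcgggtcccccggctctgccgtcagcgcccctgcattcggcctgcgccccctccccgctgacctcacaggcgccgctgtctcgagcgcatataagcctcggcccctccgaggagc
Dusp2: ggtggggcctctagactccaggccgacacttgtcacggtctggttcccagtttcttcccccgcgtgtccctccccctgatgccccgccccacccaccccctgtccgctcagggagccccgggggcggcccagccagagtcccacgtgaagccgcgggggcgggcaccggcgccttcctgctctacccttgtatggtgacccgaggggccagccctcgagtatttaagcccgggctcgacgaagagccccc
Tal1: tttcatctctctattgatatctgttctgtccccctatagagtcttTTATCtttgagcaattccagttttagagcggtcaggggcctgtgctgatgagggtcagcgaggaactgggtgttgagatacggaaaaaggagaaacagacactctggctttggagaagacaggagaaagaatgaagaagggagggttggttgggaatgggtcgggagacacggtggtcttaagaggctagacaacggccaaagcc
Alas2: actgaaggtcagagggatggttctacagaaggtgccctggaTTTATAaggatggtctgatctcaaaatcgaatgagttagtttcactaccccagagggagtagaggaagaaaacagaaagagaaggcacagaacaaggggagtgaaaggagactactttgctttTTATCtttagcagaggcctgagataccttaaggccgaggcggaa

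The match in T is CCAAT, the match in Tal1 is GATAA on the opposite strand, and those in Alas2 are GATAA and TATAAA, both on the opposite strand. Of the genes called, 24 of the 32 higher (27 windows) and 42 of the 67 lower (51 windows) were matched by symbol, and the full set held 32851 windows of 27025 genes. GATAA, the core letters bound by GATA factors, was in 10 of 27 windows of higher genes (37.0%) and 13 of 51 of lower genes (25.5%), against 22.6% of all windows. The CRE letters TGACGTNA, of the kind ATF3 binds, were in 1 of 27 and 3 of 51 windows (3.70% and 5.88%), against 2.52%. The AP-1 letters TGANTCA were in 1 of 27 and 3 of 51 windows, against 6.75%. CTTTGAT, the letters of LEF/TCF factors, was in 1 of 27 and 2 of 51 windows, against 3.21%. TATAAA was in 18.5% and 11.8% of the windows (12.4% of all), CCAAT in 37.0% and 29.4% (33.8%), and CCACACCC, the letters of erythroid KLF factors, in 3.70% and 1.96% (3.20%). Each motif was counted on its own, also where matches to 2 motifs shared bases. These are matches of letters only, and no difference between the sets was tested.

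The day 6 differences were then set against those of the other days, since T and its neighbours are expressed for a short time. The KO minus WT difference at day 6 differed from that at day 9 for 83 genes (0.682%), 33 higher (0.271%) and 50 lower at day 6 (0.411%). Against day 3 it differed for 12 genes (0.0986%), 3 higher (0.0247%) and 9 lower (0.074%). These 2 contrasts share the day 6 libraries. Of the 41 called genes named here, 23 were among the 83 and 9 among the 12. These genes were called from the same day 6 libraries, so the selection favoured such counts.

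In WT cells T, Cer1, Aplnr and Foxc2 had their highest mean on day 6, and on day 9 their means were higher in KO than in WT. T went from 1.24 ± 0.16 FPKM at day 3 to 15.6 ± 0.99 at day 6 and 0.937 ± 0.29 at day 9 in WT (SD, n = 3), while in KO it was 1.19 ± 0.42, 1.93 ± 2.17 and 6.04 ± 9.27 FPKM. The KO values at day 9 ranged from 0.383 to 16.7 FPKM, on both sides of the WT mean. Cer1 was 7.63 ± 3.02 FPKM at day 6 and 0.0841 ± 0.0402 at day 9 in WT, and 0 and 0.923 ± 0.98 FPKM in KO. Aplnr went from 20.3 ± 6.29 to 1.40 ± 0.36 FPKM in WT and from 3.51 ± 1.63 to 4.61 ± 2.22 FPKM in KO, and Foxc2 from 3.31 ± 1.09 to 0.946 ± 0.37 FPKM in WT and from 0.190 ± 0.075 to 3.5 ± 1.74 FPKM in KO. Otx2 was already present at day 3 (5.22 ± 2.53 FPKM in WT and 4.28 ± 2.42 in KO), was 7.03 ± 5.59 and 0.234 ± 0.044 FPKM at day 6, and 0.878 ± 0.094 and 2.38 ± 1.03 FPKM at day 9. Dlk1 and Cdkn1c, in contrast, were under WT at day 9 too, Dlk1 with 47.1 ± 20.1 FPKM in WT and 4.77 ± 1.87 in KO and Cdkn1c with 10.1 ± 1.94 and 3.69 ± 1.47 FPKM.

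Hbb-bh1 and Hbb-bs of WT cells were higher in each day 9 library than in each day 6 library. Hbb-bh1 went from 29.6 ± 24.4 FPKM at day 6 to 158 ± 52.4 at day 9 in WT and from 1075 ± 839 to 131 ± 77.0 FPKM in KO (SD, n = 3). At day 9 the genotypes overlapped, with 103 to 208 FPKM in WT and 50.2 to 203 in KO. Hbb-bs read 0.670 ± 0.56 FPKM in WT and 21.3 ± 16.4 in KO at day 6, and 10.2 ± 2.74 FPKM and 8.08 ± 3.84 FPKM at day 9. Itgb3 was above WT at day 9 as well (8.27 ± 0.20 FPKM in WT, 14.3 ± 3.46 in KO), as was Dusp2 (0.930 ± 0.39 and 2.84 ± 0.63 FPKM). At day 3 both genes were at like levels in the genotypes, Itgb3 at 0.546 ± 0.17 FPKM in WT and 0.443 ± 0.076 in KO and Dusp2 at 1.25 ± 0.37 and 1.17 ± 0.042 FPKM.

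**Figure D4:**
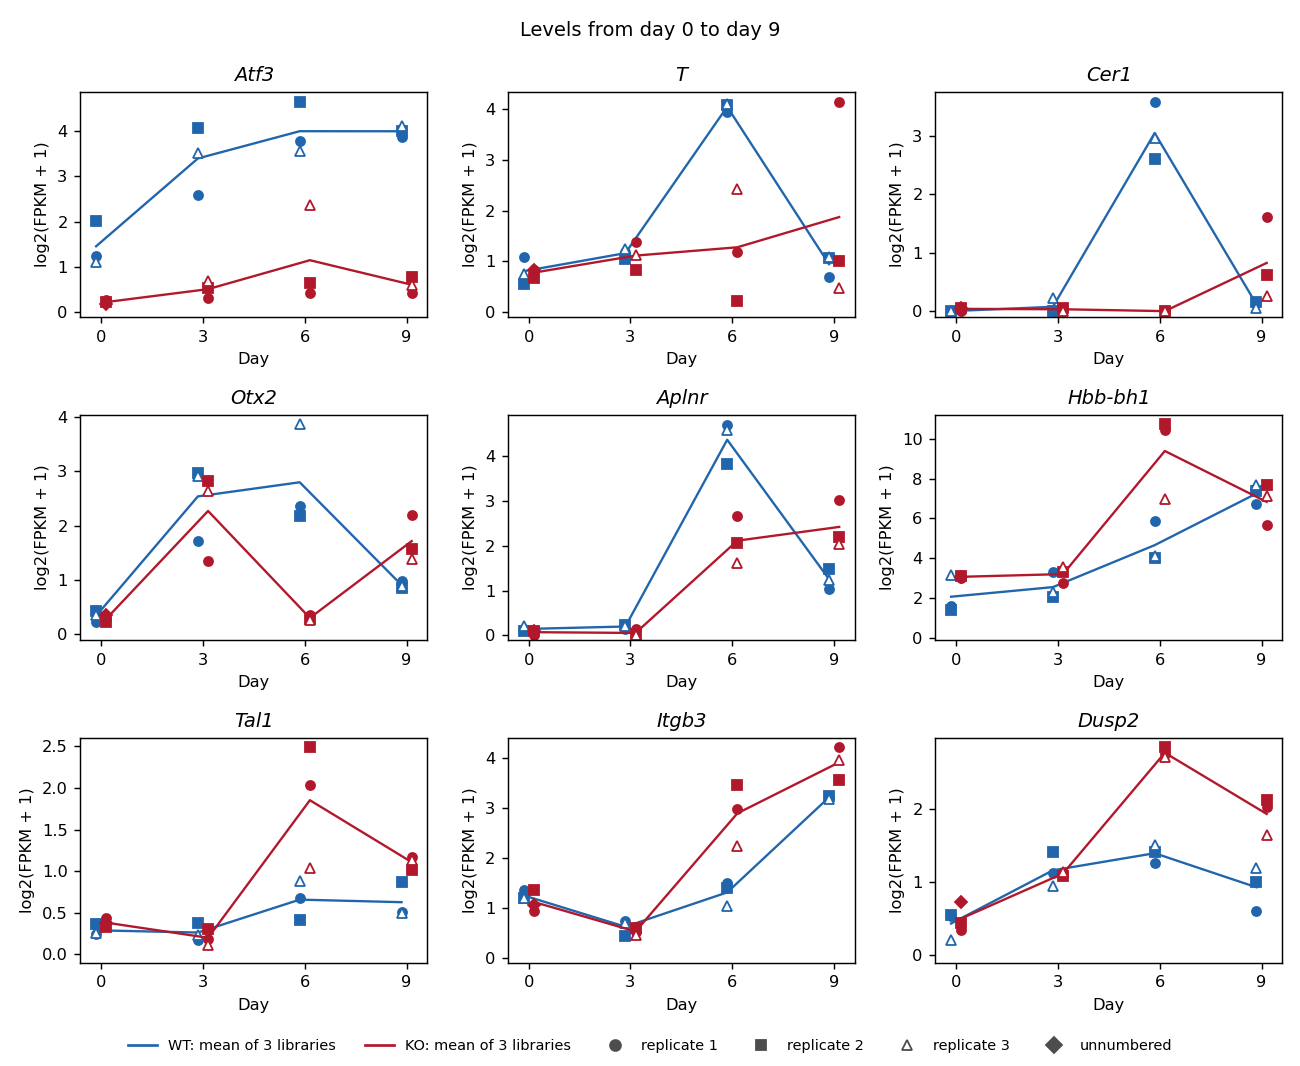
Each panel is a gene, with day of differentiation on the x axis and log2(FPKM + 1) on the y axis. Marks are libraries and lines join group means, blue for WT and red for KO, and a diamond is the KO day 0 library without a replicate number. T, Cer1 and Aplnr peak in WT on day 6, Hbb-bh1 is highest in KO on day 6, and Dusp2 is above WT in KO on days 6 and 9.

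Directions held in settings where calls did not. Among the 40 called genes described here other than Atf3, none changed direction in any setting that tested them (17 were tested with a mean of at least 5 FPKM). All but 4 of the 99 called genes had groups without overlap. For those, leaving out libraries or changing the pseudocount could not turn the direction, so these settings do not test it. Of these 40, 18 did not pass without WT replicate 3, 19 without KO replicate 2, 6 without KO replicate 3 and 11 without both replicate 3 libraries. Under TPM 20 did not pass, by voom 17, and with a pseudocount of 0.1 it was 14. With GC and length trends removed 6 did not pass (Fgf8, Sp5, Fgb, Runx1, Hoxa10 and Hoxd8). On the TPM scale, where rRNA-type reads enter the denominator and the median of all genes shifted by 0.60, 29 genes were higher and 18 lower, so 61.7% of calls were higher against 32.3% in FPKM. Genes with a high GC content held a large share of the lower calls, 31 of the 67 among the 3040 genes with the highest GC content (at least 55.3%, median difference -0.19) and 3 among the 3040 with the lowest (at most 46.1%, median 0.29), before the trends were removed.

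**Figure D5:**
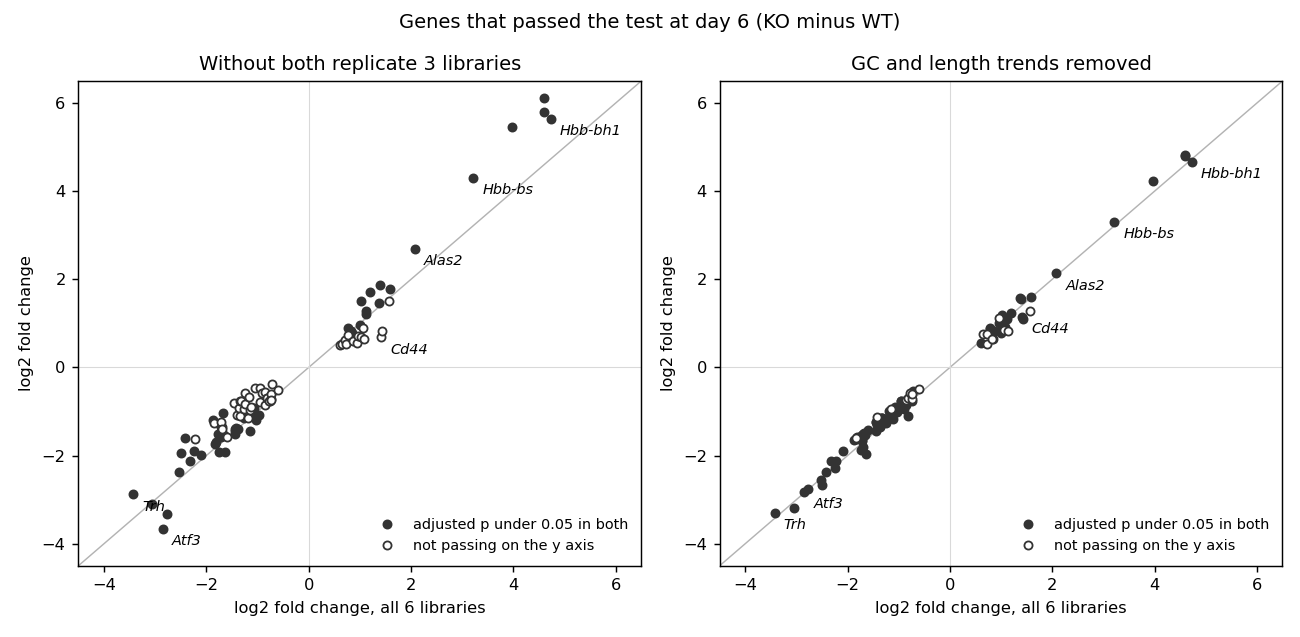
For the 99 called genes, the x axis is the log2 difference with all 6 libraries and the y axis that without both replicate 3 libraries (left) or with GC and length trends removed (right). Open marks did not pass the adjusted p of 0.05 in the setting of the y axis, and the points of Hbb-bh1, Hbb-bs and Alas2 lie above the diagonal on the left, where the difference without KO replicate 3 and WT replicate 3 is larger.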

How the data were processed

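RNA of 24 samples, in 8 groups of genotype and day with 3 each, had been sequenced in pairs on an Illumina NovaSeq from NEBNext Ultra II libraries, per the labels' protocols. The submitters' processing notes name build mm10, R 4.1.0 and DESeq2 1.30.1, the aligner HISAT2 2.2.1, the counter featureCounts 2.0.1, and Trimmomatic 0.39 and FastQC 0.11.9 for read quality. The deposited table holds FPKM per gene and library for 53465 genes, and the sources used here do not state the authors' formula. The labels' batch field repeats the group name, so batch and group cannot be told apart. Replicate numbers are those of the labels, and a KO day 0 library has none.

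With GENCODE vM21 exon lengths for 53360 genes, low values (up to 50 reads) fell within 0.05 of a whole read in 95.5% to 96.9% of cases, depending on the library. Depth is the sum of these recovered reads, 7855615 to 17003214 in the day 6 libraries, and intervals for shares cover counting error only. No library copied another (chi-square per degree of freedom 42.9 to 271 within day 6 groups).

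The genes reaching 1 FPKM in 3 or more of the 6 libraries were taken as log2(FPKM + 1). limma 3.58.1 (R 4.3.3) was fitted to all 8 groups without a replicate block, its variance prior following a trend (4.31 prior and 16 residual degrees of freedom). Tests are two-sided with Benjamini-Hochberg adjustment over 12167 genes and a threshold of 0.05. Trends with GC content and length were removed from each library with natural splines in added alternatives. The scripts were tested on simulated data. The rest was done in Python 3.11.15 with matplotlib 3.10.9, scipy 1.17.1, numpy 2.4.6 and pandas 2.3.3.

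Named are Atf3, the 15 highest and 15 lowest differences among called genes without overlap and with a mean of at least 5 FPKM in the higher group, predicted genes and pseudogenes passed over (13 were found in the higher direction), and up to 6 called members of each of 40 gene lists, or its 2 most abundant members where fewer than 2 passed. The comparison, its members and the lists were chosen with earlier results of these data known.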

Additional observations from a re-analysis of the deposited data

Results flagged for a closer look

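For 26 called genes named in the report, the difference between KO and WT at day 6 differed from that at another day in limma's test of the difference itself (an interaction term, adjusted over all genes tested). All values here are the log2 difference at day 6 minus that at the other day. The genes were named from calls at day 6, and these contrasts use the same day 6 libraries. Their direction at day 6 was therefore given by the selection, which may also enlarge the values.

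Among the genes that were lower in KO at day 6, the change from day 6 to day 9 was largest for Trh, with -4.76 (adjusted p = 7.23e-05), since its KO minus WT difference was -3.43 at day 6 and 1.33 at day 9. Cer1 gave -3.76 (3.33e-06), T -3.70 (0.0478), Col2a1 -3.47 (0.00132), Aplnr -3.41 (2.97e-05), Otx2 -3.30 (0.00392) and Lhx1 -3.07 (0.0151). Foxc2 gave -2.99 (3.72e-05), Sfrp1 -2.88 (4.27e-04), Fgf8 -2.73 (0.0296), Dll3 -2.27 (0.00113), Trp53i11 -2.16 (0.00463), Shisa2 -2.08 (0.00262), Sp5 -1.66 (0.0192) and Hoxb1 -1.20 (0.0241). In these 15 genes the negative day 6 difference was given by the selection, and the day 9 difference was positive, from 0.15 for Hoxb1 to 1.33 for Trh. Cer1, Otx2, Lhx1, Foxc2, Dll3 and Shisa2 also reached the filter through WT alone. The positive value of T was carried by KO replicate 1 of day 9, at 16.7 FPKM against 0.997 and 0.383 FPKM in KO replicates 2 and 3.

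Among the genes that were higher in KO at day 6, the values against day 9 were 5.15 for Hbb-bh1 (adjusted p = 0.0208), 5.01 for Hba-x (0.0489) and 3.59 for Hbb-bs (0.0304), the globins. They were 2.58 for Nup62cl (0.00492), 2.34 for Fgb (0.0241), 1.58 for Mttp (0.00499), 1.46 for Hoxa10 (0.00155) and 1.02 for Hoxd8 (0.00971). The day 9 difference of these 8 genes was negative, from -0.37 for Hbb-bs to -1.15 for Nup62cl.

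Against day 3 the values were -3.52 for Trh (adjusted p = 0.00691), -3.01 for Cer1 (2.90e-04), -2.36 for Sfrp1 (0.0121), -2.11 for Aplnr (0.0156), -1.98 for Dll3 (0.0123) and -1.75 for Foxc2 (0.0338). For genes that were higher they were 1.68 for Itgb3 (0.0432), 1.41 for Dusp2 (0.0163) and 1.13 for Ddah1 (0.0338). At day 3 the differences of these 9 genes lay between -0.31 (Ddah1) and 0.09 (Trh).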

How the results depend on the processing

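Of Atf3 and the 40 called genes described with it, none changed direction in any setting that tested them. Where groups did not overlap, leaving out libraries or changing the pseudocount could not turn the direction. For KO against WT at day 6, the 99 calls became 55 with a pseudocount of 0.1, 196 without the filter on low values, 12 with a mean of at least 5 FPKM, 47 under TPM, 42 by voom, and 0 with the 6 libraries alone, before and after GC and length trends were removed (359 and 521 at an unadjusted p under 0.05 in limma). The following settings were added after the data were seen. With gene-by-gene array weights 3765 passed, and with the 6 libraries alone 6 passed without both replicate 3 libraries and 7 without KO replicate 3. Leaving out each library in turn gave 42 (KO replicate 2) to 402 (WT replicate 2).

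For day 6 against day 9, the 83 calls became 40, 239, 9, 42 and 46 in the first 5 of these settings, 146 with the filter set over all 24 libraries, 148 without both replicate 3 libraries, 205 when GC and length trends were also removed, and 1703 with array weights. Leaving out each library gave 44 (KO replicate 2) to 240 (WT replicate 2). For day 6 against day 3, the 12 calls became 7, 26, 2, 2 and 3, then 46, 54 and 421, and 5 (WT replicate 1 or KO replicate 2) to 46 (KO replicate 3) with a library left out. The cause of these changes was not tested. Both contrasts between days need other groups, so the 6 libraries alone gave no value for them.

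The Atf3 difference did not pass with the 6 libraries alone (-2.84, adjusted p = 0.418), the same with GC and length trends removed (-2.82, adjusted p = 0.578) or without KO replicate 3 (-3.45, adjusted p = 0.0553), or under TPM (-2.38, adjusted p = 0.134). It lay between -3.45 and -2.48 with each library left out.

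Equal replicate numbers did not pair the libraries: deviations of same-numbered WT and KO libraries correlated at 0.284, -0.273 and -0.503 across genes, and no separate source of a pairing is given. With a replicate block within day 6, 146 genes passed for KO against WT, 98 of them among the 99, 147 for day 6 against day 9 and 18 against day 3, and the Atf3 difference stayed at -2.84 (adjusted p = 5.78e-04). Array weights fitted by REML did not converge and are not given. WT replicate 3, with 4272088 reads outside rRNA-type genes, limits the precision of genes under 1 FPKM most.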

Other observations

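The first genes described here are in none of the lists above, and they were chosen after seeing their values. Of the 99 called genes 64 were in no list, and 8 were predicted genes, clone names or pseudogenes. Gli1, the transcription factor and target of Hedgehog signalling, read 5.42, 2.47 and 6.24 FPKM in WT and 0.998, 0.531 and 0.467 FPKM in KO (-1.72, SE 0.24, adjusted p = 4.90e-04). Penk, the precursor of enkephalins, read 3.07, 2.90 and 4.35 FPKM in WT and 0.452, 0.232 and 0.334 FPKM in KO (-1.72, SE 0.15, adjusted p = 1.50e-06). Pkd1l1, a polycystin of the node cilia that set left and right, read 2.39, 1.34 and 2.01 FPKM in WT and 0.0846, 0.0425 and 0.0520 FPKM in KO (-1.44, SE 0.13, adjusted p = 1.72e-06). Lrig3, a membrane protein with leucine-rich and immunoglobulin domains, read 5.26, 5.04 and 5.58 FPKM in WT and 1.17, 1.54 and 1.61 FPKM in KO (-1.37, SE 0.22, adjusted p = 0.00165). These 4 genes passed whichever library was left out. Gli1, Penk and Pkd1l1 reached the filter through WT alone, so their direction and lack of overlap were given by the filter. The groups of Lrig3 did not overlap either, as in 895 of all genes tested (7.36%). Nnat, an imprinted gene, read 148, 83.1 and 88.3 FPKM in WT and 54.2, 45.9 and 35.6 FPKM in KO (-1.19, SE 0.25, adjusted p = 0.0248), but it did not pass without WT replicate 1, KO replicate 2 or KO replicate 3 (adjusted p up to 0.157).

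Among the higher genes outside the lists, Fermt3, the kindlin of blood cells and platelets that activates integrins, read 0.510, 0.458 and 0.532 FPKM in WT and 3.75, 5.17 and 1.06 FPKM in KO (1.39, SE 0.26, adjusted p = 0.00868). It reached the filter through KO alone, so its direction and lack of overlap were given by the filter. KO replicate 3 was the lowest KO library, and the call was lost without KO replicate 2 (adjusted p = 0.0818). Hbb-bh0, which is annotated as a pseudogene and lies in the beta globin cluster, read 13.6, 4.59 and 8.89 FPKM in WT and 647, 607 and 28.5 FPKM in KO (4.60, SE 0.85, adjusted p = 0.00757, and 0.0784 without KO replicate 2). Reads shared with similar globin genes leave its own level uncertain.

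The Y-linked genes Eif2s3y and Ddx3y did not reach the filter. Eif2s3y read 0.443, 1.64 and 0.0551 FPKM in WT and 0.0444, 0 and 0.0239 FPKM in KO. Ddx3y read 0.0338, 0.649 and 0 FPKM in WT, and the KO libraries list it at 0. At days 0, 3 and 9 the means of Eif2s3y were 0.551, 0.764 and 0.843 FPKM in WT and 0, 0.0176 and 0.00736 FPKM in KO. Those of Ddx3y were 0.136, 0.295 and 0.327 FPKM in WT and 0, 0 and 0.00929 FPKM in KO. The means of both genes were thus lower in KO on each day, and the cause was not tested.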
